A study of Mus musculus with 6 samples.

Results

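The genes described here are 10 immediate early genes measured in CD4+ CD8+ thymocytes with and without Ets1: Fos, Fosb, Fosl2, Jun, Junb, Jund, Atf3, Ier2, Zfp36 and Dusp1. Each was taken by its symbol from probe sets annotated to that gene alone. Where a gene had several, the probe set brightest by its mean over all arrays stood for it. All 10 were found, among 22180 genes named in this way. Only Jund had a choice, between 2 probe sets, and no member was removed by a filter on low signal. The series holds 6 single-channel Affymetrix arrays of total RNA, 3 from wild-type and 3 from Ets1-/- mice, given as C57BL/6 and aged 5 to 6 weeks, with no treatment named. Thymus cells of both groups were fixed with formaldehyde and then selected on beads, first for CD8 and then for CD4. Replicates are cohorts of litter mates per the labels. Neither the labels nor the table say how many animals stand behind an array, or how the Ets1 allele was made. Values are the deposited signals on a log2 scale, so a difference of 1 is a doubling, and levels are compared for 1 gene between arrays. Percentiles place a gene's signal among all genes of an array and also reflect how well its probes bind, so they are read for 1 gene across arrays.

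Facts of the whole series bear on these genes in several ways. The array medians were 4.21 to 4.33 in wild type and 3.66, 4.31 and 4.19 in Ets1-/- replicates 1, 2 and 3, so the first Ets1-/- array had the lowest median. The median difference over all genes was -0.22, and -0.01 once each array was centred on its own median. It was -0.02 without Ets1-/- replicate 1, and -0.10 with a pseudocount of 16 added on the linear scale. As it varied with the arrays and the processing, -0.22 is given as a reference and not as an offset to take from each member. The single Ets1 probe set did not separate the groups (9.11, 9.32 and 9.17 against 9.27, 9.22 and 8.79). Its position relative to the deletion is unstated, so this signal is no check of the labels, and Ets1-/- below means the arrays so labelled. Of 12 measured markers of double-positive cells, 1 rose (Ptcra, called only without Ets1-/- replicate 1 when single arrays were left out, with an adjusted p up to 0.116) and 0 fell (0 lower also at an unadjusted limma p under 0.05), with median levels of 10.52 to 10.54 in wild type and 10.39 to 10.42 in Ets1-/-. In bulk RNA, fewer cells of a type and less RNA per cell cannot be told apart.

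Immediate early genes are transcribed within minutes of a signal, without new protein synthesis, from factors already present in the cell. Fos and Jun proteins pair through leucine zippers to form AP-1, the transcription factor that cooperates with NFAT in T cells downstream of the T-cell receptor. In the thymus, receptor signals during selection induce several of these genes. Ets1 belongs to the ETS family, and its relatives Elk1, Elk3 and Elk4 act with serum response factor (SRF) at the promoter of Fos and of other immediate early genes.

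In the Ets1-/- arrays Fosb rose 2.97-fold, and it was the only member that passed the test. Signals of Fos, Jun and Zfp36 were also higher on every Ets1-/- array than on any wild-type array, but these 3 differences did not pass. Fosl2, Junb, Jund, Atf3, Ier2 and Dusp1 had overlapping groups. Over all genes, 1.86% passed the limma test at an adjusted p under 0.05, 1.29% higher and 0.568% lower. Among the members 1 of 10 was called higher and 0 lower (2 higher and 0 lower at an unadjusted limma p under 0.05, where 13.2% of all genes lay in either direction and 4.54% were higher). All Ets1-/- arrays lay above all wild-type arrays for 4 of 10 members and for 5.76% of all genes, and below them for 0 members and for 16.1% of all genes. With centred arrays these were 6 of 10 members and 11.2% of all genes above, and 0 members and 9.3% below. With quantile normalization they were 5 of 10 and 10.1% above, and 0 and 12.1% below. Of the members, 8 of 10 had a log2 fold change above 0, against 27.0% of all genes, and the median of the members was 0.44. These are values of the deposited scale, where the median over all genes was -0.22. With centred arrays the medians were 0.65 for the members and -0.01 for all genes.

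**Figure D1:**
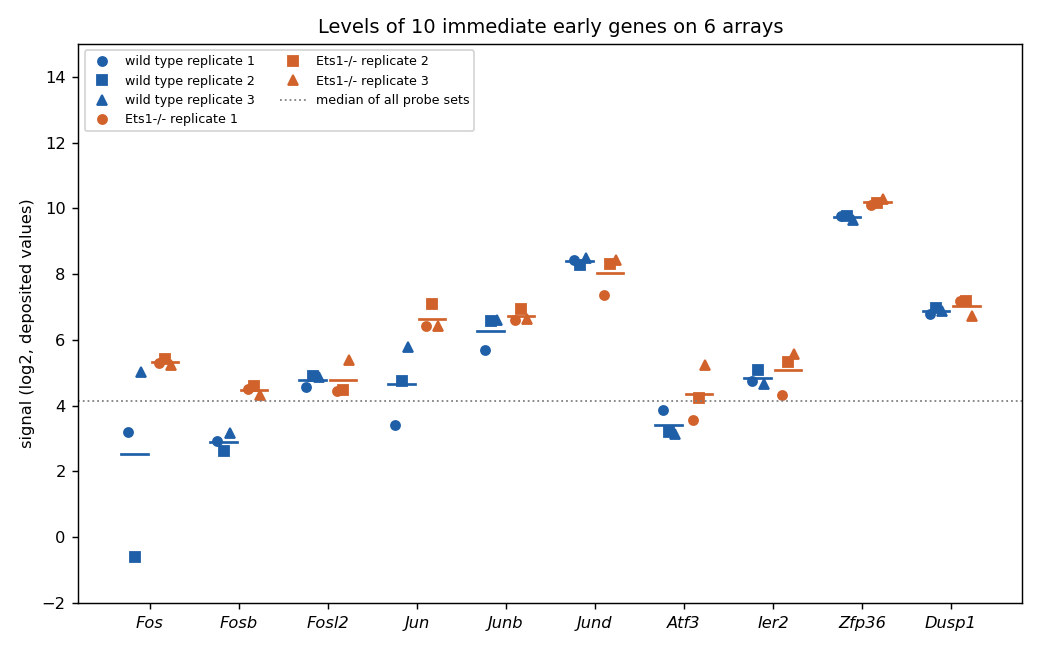
Signal on the log2 scale (vertical axis) of the 10 genes on each of 6 arrays, wild type in blue and Ets1-/- in orange, with symbols for replicates 1 to 3, a bar at each group mean and a dotted line at 4.13, the median of all probe sets. Fosb, Jun, Fos and Zfp36 have all orange points above all blue points, and the 3 blue points of Fos run from -0.61 to 5.01.

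Proximal promoters are shown for Fosb, Fos, Jun and Zfp36, the members whose groups did not overlap, and for Dusp1, which has a complete cyclic AMP response element and overlapping groups. Each is the 250 bases before the transcription start, 5′ to 3′ on the gene's own strand, from RefSeq on GRCm38.p6. Capitals mark matches to any motif searched, on both strands: the CArG box bound by SRF, the cyclic AMP response element TGACGTCA with its half-site TGACG and its variant TGACNTCA, the AP-1 site TGANTCA, and the ETS site CCGGAAG. TGACGTCA holds TGACG on both strands and is 1 form of TGACNTCA. The half-site and the variant were added after the promoters were read.
Fosb (chr7:19310046-19310295, minus strand): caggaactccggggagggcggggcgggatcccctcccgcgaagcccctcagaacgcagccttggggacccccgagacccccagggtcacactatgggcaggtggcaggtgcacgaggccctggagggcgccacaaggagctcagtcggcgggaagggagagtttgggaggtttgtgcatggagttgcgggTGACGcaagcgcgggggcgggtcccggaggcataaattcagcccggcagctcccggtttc
Fos (chr12:85473640-85473889, plus strand): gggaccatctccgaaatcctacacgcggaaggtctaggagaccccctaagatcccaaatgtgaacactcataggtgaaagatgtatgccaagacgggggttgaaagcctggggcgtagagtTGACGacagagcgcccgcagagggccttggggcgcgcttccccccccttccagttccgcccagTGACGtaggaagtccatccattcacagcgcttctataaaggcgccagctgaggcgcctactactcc
Jun (chr4:95052223-95052472, minus strand): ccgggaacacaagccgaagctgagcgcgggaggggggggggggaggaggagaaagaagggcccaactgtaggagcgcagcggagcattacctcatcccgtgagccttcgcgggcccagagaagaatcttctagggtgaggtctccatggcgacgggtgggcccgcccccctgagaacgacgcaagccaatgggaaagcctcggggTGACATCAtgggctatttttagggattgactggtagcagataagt
Zfp36 (chr7:28379229-28379478, minus strand): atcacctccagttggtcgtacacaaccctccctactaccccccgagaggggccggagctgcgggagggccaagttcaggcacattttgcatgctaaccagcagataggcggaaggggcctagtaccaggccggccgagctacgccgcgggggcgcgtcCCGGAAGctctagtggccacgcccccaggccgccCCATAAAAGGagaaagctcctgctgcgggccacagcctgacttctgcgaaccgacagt
Dusp1 (chr17:26508473-26508722, minus strand): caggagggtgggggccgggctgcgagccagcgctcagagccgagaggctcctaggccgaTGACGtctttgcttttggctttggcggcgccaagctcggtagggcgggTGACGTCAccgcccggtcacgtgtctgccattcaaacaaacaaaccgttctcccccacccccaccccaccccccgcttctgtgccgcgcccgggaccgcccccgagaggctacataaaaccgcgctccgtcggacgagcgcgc

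Of the 10 genes, 9 had an entry in the promoter table. The half-site TGACG occurred in 5 of these (Fos, Fosb, Junb, Atf3 and Dusp1) and in 17.8% of 32851 promoters of the same length. It lay 60 to 56 bases before the start of Fosb and, in Fos, at both 129 to 125 and 66 to 62 bases before the start. The variant TGACNTCA occurred in Jun, as TGACATCA from 45 to 38 bases before the start, and in Dusp1, against 7.49% of all promoters. The complete TGACGTCA occurred in Dusp1 alone of the 9 (1.55% of all promoters). Zfp36 alone held a CArG box, CCATAAAAGG, from 58 to 49 bases before the start (1.47% of all promoters), and an ETS site, from 92 to 86 bases before it (6.91%). The AP-1 site TGANTCA occurred in 0 of the 9 and in 6.75% of all promoters. A match is a description of the letters in this window. Sites further upstream, such as a CArG box of another member, were not searched for. Members with and without the half-site occurred both among those whose groups did not overlap and among the others.

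Fosb encodes a partner of Jun proteins in AP-1. Its signal was 2.93, 2.63 and 3.16 in wild-type replicates 1 to 3 and 4.51, 4.60 and 4.33 in Ets1-/- replicates 1 to 3. Every Ets1-/- array lay more than 1 log2 unit above every wild-type array, and the arrays of a group lay close together. The means were 2.91 ± 0.27 and 4.48 ± 0.14 (SD, n = 3 each), a log2 fold change of 1.57 ± 0.24 (SE; 95% interval 1.02 to 2.12; limma adjusted p = 0.0183), which is 2.97-fold (2.03 to 4.35). Within each array Fosb stood at percentiles 14.0, 8.5 and 16.4 of all genes in wild type and 62.4, 53.8 and 49.6 in Ets1-/-. The wild-type signals were thus in the dim part of the range, under the median of all probe sets (4.13). With a pseudocount of 16 added on the linear scale, the log2 fold change was 0.70 ± 0.12 (SE; limma adjusted p = 0.0143). The call was lost without wild-type replicate 1 or 2 (adjusted p = 0.0741 and 0.0845) and without Ets1-/- replicate 2 or 3 (0.0869 and 0.0543), while the log2 fold change stayed between 1.43 and 1.70 whichever array was left out. With the replicate number as a block in the limma fit, the call of Fosb was lost too (adjusted p = 0.0649).

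Fos encodes the founding partner of Jun in AP-1. Its signal was 3.19, -0.61 and 5.01 in wild-type replicates 1 to 3 and 5.30, 5.42 and 5.23 in Ets1-/- replicates 1 to 3. The Ets1-/- arrays were almost level, while the wild-type arrays were spread widely, with replicate 3 just under the Ets1-/- range and replicate 2 at the bottom of its array. The group means were 2.53 ± 2.87 and 5.32 ± 0.10 (SD, n = 3 each). The groups differed by 2.78 ± 1.21 log2 units (SE; 95% interval -0.01 to 5.58; limma adjusted p = 0.383) and did not pass. It depended on wild-type replicate 2, without which it was 1.21 (adjusted p = 0.524), and it was 1.04 ± 0.33 (SE; adjusted p = 0.171) with a pseudocount of 16. Without wild-type replicate 3 it was 4.03 (adjusted p = 0.153). The spread of Fos within groups was larger than that of 99.3% of all genes, and its percentiles on the wild-type arrays were 19.4, 0.4 and 62.1.

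Fosl2 encodes Fra-2, a Fos-related partner of Jun proteins. Its signal was 4.57, 4.89 and 4.88 in wild type and 4.44, 4.48 and 5.39 in Ets1-/-. Ets1-/- replicate 3 was the highest array and the other two were the lowest, so the groups overlapped on both sides. The groups differed by -0.01 ± 0.31 log2 units (SE; 95% interval -0.73 to 0.71; limma adjusted p = 0.993), and its sign changed with the scaling, to 0.20 with centred arrays. The interval covers a fold from 0.603 to 1.64, which is not a limit of detection. In arrays simulated with the spreads of this comparison, 0.4% of the genes given a change of 1 log2 unit were recovered. For a change of 2 log2 units it was 41.2%.

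Jun encodes the DNA-binding partner that can also form AP-1 as a homodimer. Its signal was 3.42, 4.76 and 5.77 in wild-type replicates 1 to 3 and 6.42, 7.10 and 6.42 in Ets1-/- replicates 1 to 3. The groups did not overlap, but the wild-type arrays covered more than 2 log2 units and the highest of them came within 1 unit of the lowest Ets1-/- arrays. The means were 4.65 ± 1.18 and 6.65 ± 0.39 (SD, n = 3 each), a log2 fold change of 2.0 ± 0.55 (SE; 95% interval 0.72 to 3.28; limma adjusted p = 0.155). The difference did not pass the test over all genes. It passed with an intensity trend and a robust prior (adjusted p = 0.0369), where 2.79% of all genes were called higher. It also passed with quantile normalization and a pseudocount of 16 together (1.53, adjusted p = 0.0392), where 3.4% were. Over the other settings the adjusted p ran from 0.0582 to 0.330. Jun was at percentiles 25.2, 58.4 and 72.0 of the wild-type arrays and 83.0, 84.8 and 76.9 of the Ets1-/- arrays.

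**Figure D2:**
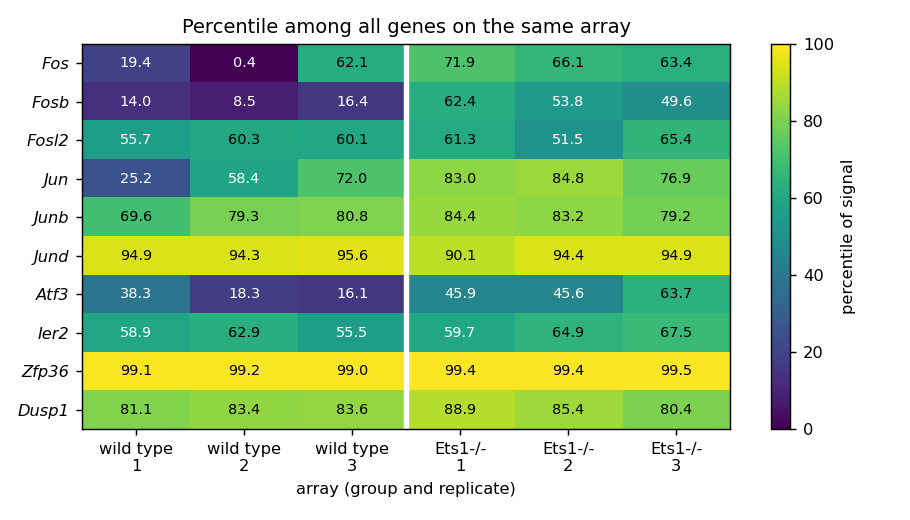
Percentile of each gene's signal among all 22180 genes on the same array (colour and printed value), a measure that does not depend on the scaling of the array. Rows are the 10 genes and columns are the 3 wild-type and 3 Ets1-/- arrays. Fosb rises from 8.5 to 16.4 on the wild-type arrays to 49.6 to 62.4 on the Ets1-/- arrays, and Jund and Zfp36 stay above 90 on all arrays.

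Junb and Jund encode the other two Jun proteins, JunD being the one that resting cells commonly hold. Junb had 5.68, 6.58 and 6.59 in wild type and 6.59, 6.93 and 6.64 in Ets1-/-. Wild-type replicate 1 stood clearly lower, replicate 2 lay just under the lowest Ets1-/- array and replicate 3 just above it. The groups differed by 0.43 ± 0.31 log2 units (SE; 95% interval -0.27 to 1.14; limma adjusted p = 0.583), and 0.13 without wild-type replicate 1. Once arrays were centred on their medians the groups of Junb no longer overlapped, with a log2 fold change of 0.65 (adjusted p = 0.354).

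Jund had 8.42, 8.28 and 8.50 in wild type and 7.38, 8.32 and 8.42 in Ets1-/-. Ets1-/- replicate 1, the array with the lowest median, was the one low value, and the other two lay within the wild-type range. The groups differed by -0.36 ± 0.32 log2 units (SE; 95% interval -1.09 to 0.37; limma adjusted p = 0.643), and -0.03 without that array. The second, dimmer probe set of Jund gave -0.30 ± 0.37 (SE; adjusted p = 0.761 over all probe sets), with its lowest value, 6.80, on the same array.

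Atf3 encodes a bZIP factor induced by cell stress, which can pair with Jun. Its signal was 3.86, 3.21 and 3.15 in wild type and 3.55, 4.24 and 5.25 in Ets1-/-. Ets1-/- replicate 1 lay under wild-type replicate 1, and replicates 2 and 3 lay above all wild-type arrays. The groups differed by 0.94 ± 0.44 log2 units (SE; 95% interval -0.08 to 1.96; limma adjusted p = 0.423), 1.34 without Ets1-/- replicate 1 and 0.49 without Ets1-/- replicate 3. With centred arrays the groups did not overlap, and the log2 fold change was 1.15 (adjusted p = 0.199). The signals were dim, with a mean of 3.88 over all arrays.

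Zfp36 encodes tristetraprolin, an RNA-binding protein that promotes decay of cytokine and immediate early transcripts. Its signal was 9.77, 9.78 and 9.66 in wild type and 10.11, 10.15 and 10.29 in Ets1-/-. Both groups were narrow, and every Ets1-/- array lay above every wild-type array. The means were 9.74 ± 0.07 and 10.18 ± 0.10 (SD, n = 3 each), and the groups differed by 0.44 ± 0.21 log2 units (SE; 95% interval -0.04 to 0.93; limma adjusted p = 0.423). Its spread within groups was at percentile 1.5 of all genes, and the moderated error draws such a spread up towards the typical gene. With an intensity trend and a robust prior together the difference passed (SE 0.08, adjusted p = 0.00123), and it passed with quantile normalization and a pseudocount of 16 together (0.38, adjusted p = 0.0420). Over the other settings the adjusted p ran from 0.0942 to 0.734, and the log2 fold change from 0.39 to 0.66.

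Dusp1 and Ier2 complete the set. Dusp1 encodes a phosphatase that switches off the MAP kinases which induce immediate early genes. It had 6.78, 6.98 and 6.89 in wild type and 7.18, 7.17 and 6.74 in Ets1-/-. Ets1-/- replicate 3 was the lowest of all arrays and the other two the highest, and the groups differed by 0.15 ± 0.23 log2 units (SE; 95% interval -0.39 to 0.69; limma adjusted p = 0.794). Ier2 encodes a small nuclear protein named for its early induction. It had 4.76, 5.08 and 4.64 in wild type and 4.32, 5.33 and 5.58 in Ets1-/-, with the first Ets1-/- array lowest and the others highest. Its groups differed by 0.25 ± 0.35 log2 units (SE; 95% interval -0.57 to 1.07; limma adjusted p = 0.773).

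**Figure D3:**
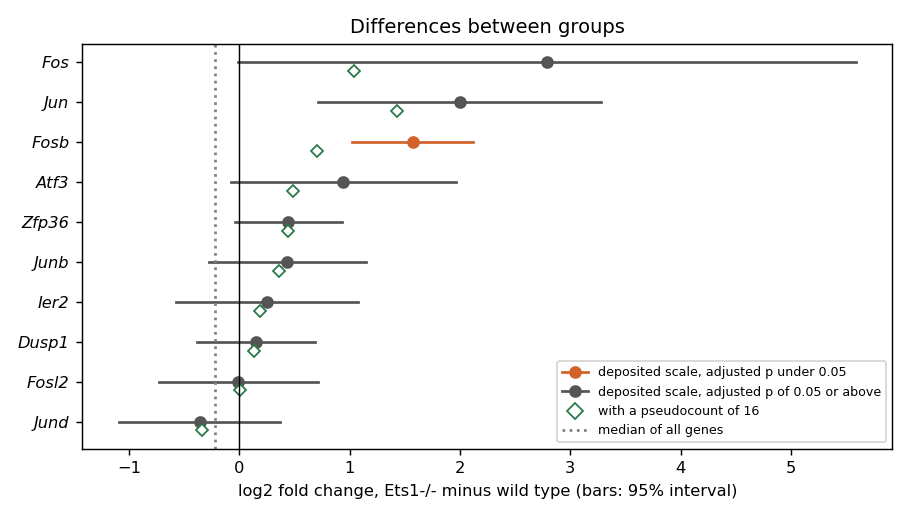
Log2 fold change of each gene, Ets1-/- minus wild type (horizontal axis), with its 95% interval from limma; open diamonds give the value with a pseudocount of 16 and the dotted line marks the median of all genes, -0.22. Only the interval of Fosb belongs to a difference with an adjusted p under 0.05 (orange), and the values of Fos and Fosb shrink most with the pseudocount, from 2.78 to 1.04 and from 1.57 to 0.70.

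Some members shared their order of arrays. Fos, Fosb, Jun and Junb were each highest of their group on wild-type replicate 3 and on Ets1-/- replicate 2. Wild-type replicate 3 was highest for 5 of 10 members and for 39% of all genes. Ets1-/- replicate 2 was highest for 4 of 10 members and for 49.4% of all genes. Among the wild-type arrays Fos and Fosb were lowest in replicate 2, and Jun and Junb in replicate 1. Those 2 arrays were lowest for 29.9% and 35.5% of all genes. Within Ets1-/-, replicate 1 was the lowest of its group for 7 of 10 members and for 79.6% of all genes, and replicate 3 was the highest for 5 of 10 members (Fosl2, Jund, Atf3, Ier2 and Zfp36) and for 44.3% of all genes. The within-group spread was at percentile 99.3 of all genes for Fos, 96.1 for Jun and 90.1 for Atf3, and at 15.3 for Fosb, 12.2 for Dusp1 and 1.5 for Zfp36. A difference as large as that of Jun could therefore miss the threshold while the smaller one of Fosb passed. Simulated arrays with the spreads of this comparison recovered 41.2% of the genes given a change of 2 log2 units, and 0.4% of those given 1.

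**Figure D4:**
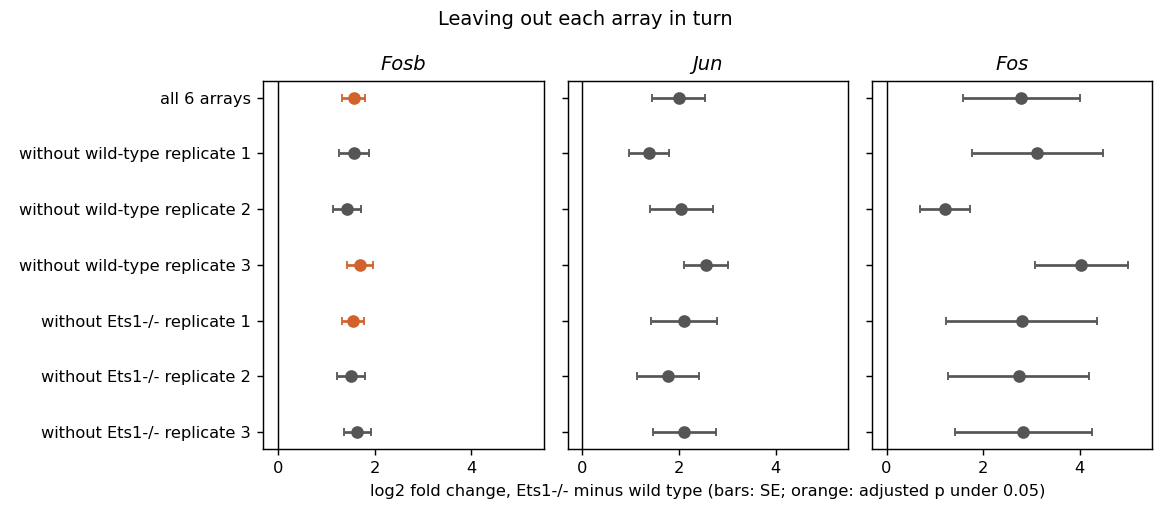
Log2 fold change with its SE for Fosb, Jun and Fos (panels) with all 6 arrays and after leaving out each array in turn (rows); orange marks an adjusted p under 0.05. Fosb stays between 1.43 and 1.70, while Fos runs from 1.21 without wild-type replicate 2 to 4.03 without wild-type replicate 3.

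Genes with the profile nearest to that of Fos or Jun over the 6 arrays were ranked by the root mean square distance between centred log2 profiles, among 10640 and 10639 genes at or above the median signal. Nearest to Fos were Gadd45g, a stress-inducible gene (distance 0.49), Clec4a3, a C-type lectin receptor of myeloid cells (0.86), Rgs1, a regulator of G-protein signalling (0.92), Prr5 (0.96) and Cdc14b (1.14). Gadd45g had 3.79, 1.21 and 5.28 in wild type and 6.23, 6.54 and 5.95 in Ets1-/-, so it shared the low wild-type replicate 2 and the level Ets1-/- arrays of Fos. Nearest to Jun were Mapre2 (0.35), Plekho1 (0.40), Slc7a8 (0.43), Neu3 (0.47) and Hectd2 (0.48). Hectd2 rose by 1.92 (limma adjusted p = 0.0438, but 0.0681 to 0.145 whichever array was left out), and the other 9 of these genes did not pass.

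Of 11 other measured AP-1 and related bZIP factors, 1 rose and 0 fell (2 higher and 2 lower at an unadjusted limma p under 0.05), with a median log2 fold change of -0.13 against -0.22 over all genes. Maf, a bZIP factor of macrophages and of some T cells, rose from 3.19, 4.78 and 5.15 to 8.32, 6.93 and 8.25, by 3.46 ± 0.58 (SE; limma adjusted p = 0.0270). All its Ets1-/- values lay above the wild-type ones. Its call was lost without wild-type replicate 2 (adjusted p = 0.0536) and without Ets1-/- replicate 1 or 3 (0.101 and 0.0916). Batf, which replaces Fos proteins as a partner of Jun, had a log2 fold change of 1.23 (adjusted p = 0.219). Atf2 had -0.58 (adjusted p = 0.304), Maff -0.96 (0.310) and Mafg 1.00 (0.435).

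Other immediate early genes differed in both directions, and some differences were large. Of 47 measured, 3 rose and 0 fell, where 1.29% of all genes were called higher and 0.568% lower. At an unadjusted limma p under 0.05, 13 were higher and 3 lower. Of all genes, 4.54% were higher and 13.2% lay in either direction at that p. The median log2 fold change of the 47 was -0.01. All Ets1-/- arrays lay above all wild-type arrays for 12 of the 47 and for 5.76% of all genes. They lay below for 5 of the 47 and for 16.1% of all genes. Klf2, a factor of T-cell quiescence and egress, rose from 4.46 to 8.07 (adjusted p = 0.000578). The pseudokinase gene Trib1 rose by 1.41 (0.0415) and Myc, a growth regulator, by 1.64 (0.0499). Trib1 and Myc lost their calls whichever array was left out (adjusted p of 0.0790 to 0.147 and 0.0687 to 0.148), and the count of risen genes was then 1 or 2. Rgs1, Dusp2, Arc and Cd69 had log2 fold changes of 3.09, -1.30, -1.19 and 0.93 with adjusted p of 0.0743, 0.0817, 0.0886 and 0.111. With a pseudocount of 16 the counts were 8 higher and 3 lower, with Rgs1 and Cd69 among the higher and Dusp2 and Arc among the lower. Of all 22180 genes, 484 (2.18%) were called higher in that setting and 423 were called lower. Egr1, a zinc finger factor induced with Fos, had 8.41, 8.56 and 8.34 in wild type and 8.44, 8.69 and 9.23 in Ets1-/- (0.35 ± 0.27, SE; adjusted p = 0.606), so its groups overlapped.

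**Figure D5:**
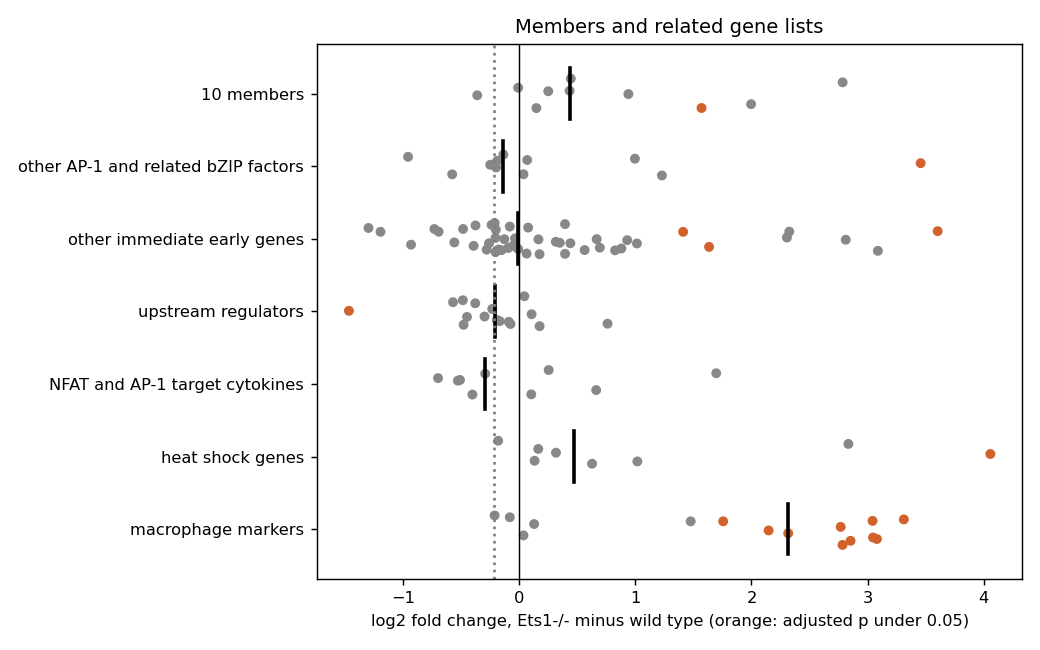
Log2 fold change, Ets1-/- minus wild type (horizontal axis), of each gene in the 10 members and in 6 other lists (rows); orange points have an adjusted p under 0.05, black bars are list medians and the dotted line is the median of all genes. The members have a median of 0.44, other immediate early genes -0.01, heat shock genes 0.47 and macrophage markers 2.32.

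The regulators that act before immediate early transcription were mostly near the median of all genes. Of 16 measured, 0 rose and 1 fell (0 higher and 1 lower at an unadjusted limma p under 0.05), with a median of -0.21. Elk3, an ETS partner of SRF that can repress its targets, fell from 7.47, 7.95 and 7.74 to 5.87, 6.25 and 6.64, by 1.46 on the log2 scale (limma adjusted p = 0.0472). Its groups did not overlap, and its call was lost whichever array was left out (adjusted p of 0.0576 to 0.172). Srf had 7.13, 7.28 and 6.98 in wild type and 6.31, 6.45 and 6.93 in Ets1-/- (-0.57 ± 0.25, SE; adjusted p = 0.391). Elk1 and Elk4 had -0.48 (adjusted p = 0.606) and -0.07 (0.896), the kinase genes Mapk8 (JNK1) and Mapk14 (p38) had -0.48 (0.546) and -0.45 (0.513), and the p38-activated kinase gene Mapkapk2 had 0.76 (0.494).

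Hspa1a and a part of the markers listed for macrophages, B cells, mature T cells and dendritic cells rose in Ets1-/-. Of 8 heat shock genes 1 rose and 0 fell (4 higher and 0 lower at an unadjusted limma p under 0.05), and their summed signal, on the log2 scale, was 12.08 to 12.25 in wild type and 12.37 to 12.55 in Ets1-/-. The inducible chaperone gene Hspa1a rose from 1.93, 1.10 and 0.52 to 4.22, 6.32 and 5.18, by 4.06 (limma adjusted p = 0.0124, and up to 0.0433 with an array left out), and by 1.60 with a pseudocount of 16. Of 15 macrophage markers 10 rose and 0 fell (11 higher and 0 lower unadjusted). Their summed signal was 9.59 to 9.86 in wild type and 11.93 to 12.36 in Ets1-/-, with Csf1r, Ctss and C1qa up by 3.31, 2.78 and 2.85. Mertk (log2 fold change 1.48), Cd14 (0.13), Timd4 (0.04), Vsig4 (-0.08) and Marco (-0.21), named after their values were seen, did not pass. Of 10 dendritic-cell markers 5 rose and 0 fell (6 higher and 1 lower unadjusted), with sums of 8.68 to 8.87 and 11.56 to 11.69. Of those that rose, H2-Ab1 (by 3.65), H2-Aa (by 3.48) and H2-Eb1 (by 4.11) encode MHC class II chains, which B cells and macrophages carry too. The others that rose were Itgax (by 3.67) and Irf8 (by 2.51), named after their values were seen. Flt3, Zbtb46, Xcr1, Cd209a and Siglech, also named after their values were seen, did not pass. Their log2 fold changes were 0.03, -0.38, -1.15, -0.19 and 0.81. Of 10 B-cell markers 5 rose and 0 fell (10 higher and 0 lower unadjusted), with sums of 6.5 to 6.91 and 8.67 to 9.77. The count was 3 without wild-type replicate 1 or Ets1-/- replicate 3, and 9 with centred arrays. Of 6 markers of mature single-positive T cells 4 rose and 0 fell (5 higher and 0 lower unadjusted), with sums of 7.22 to 7.81 and 9.44 to 9.86, and 2 rose when any Ets1-/- array was left out. Whether cells of these types were more frequent in the Ets1-/- samples, and what raised Hspa1a, was not tested. Any part of either in the values of Fosb, Fos, Jun and Zfp36 was not tested. Neutrophil, erythroid, thymic epithelium, fibroblast and endothelium markers had 0 called members in limma (1, 0, 0, 0 and 4 at an unadjusted p under 0.05, all 5 lower), and their sums in Ets1-/- did not exceed 7.46.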

How the data were processed

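The deposited table holds log2 values of 41345 probe sets on 6 arrays. Per the submitters' processing notes the authors used affy, with no version. The sources used here do not give the background correction, normalization or genome build; that the scale is log2 was judged from the range of the values. Through the platform annotation 23521 probe sets named 1 gene, 1814 several and 16010 none. Ets1-/- minus wild type was fitted over 22180 genes by limma's lmFit and eBayes (limma 3.58.1, R 4.3.3; two-sided, no covariate), and p was adjusted over all genes by Benjamini-Hochberg, with 0.05 as the threshold. Each SE is the moderated one. P-values measure the spread between these samples, and the number of arrays limits the precision. Members and lists were chosen with earlier results of these data known. Named genes are all members and, of each list, the called genes and up to 4 more with the smallest p, up to 3 for markers, plus Ets1, Egr1 and fixed regulators. Alternatives were the mean of all probe sets, a filter at the median signal, quantile, median and cyclic loess normalization, an intensity trend with a robust prior, a pseudocount of 16, a replicate block and each array left out. Quantile normalization together with the pseudocount was added after seeing the data. The fit was tested on simulated data (20 runs, 200 changed genes each, 3.48% wrong calls). Plots were drawn with matplotlib 3.10.9 and tables handled with pandas 2.3.3 (Python 3.11.15). Listed genes without a value are not reported here.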

Additional observations from a re-analysis of the deposited data

How the results depend on the processing

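The 10 members and the count over all genes were recomputed under every alternative. Over all genes 413 were called, 69.5% of them higher. The count was 798 with quantile normalization, 745 with median centring, 777 with cyclic loess, 1172 with the intensity trend and robust prior (52.7% higher), 907 with a pseudocount of 16 (53.4% higher), 1350 with quantile normalization and the pseudocount together (55.9% higher), and 190 to 379 with an array left out. The filter at the median signal gave 611 calls, 56.8% of them higher. Of the members 1 was called, Fosb. The count was 3 (Fosb, Jun and Zfp36) with the intensity trend and robust prior and with quantile normalization and the pseudocount together. It was 0 with the filter at the median signal, which leaves out Fosb, Fos and Atf3 by their dim signal (limma, 2 at an unadjusted p under 0.05). With an array left out it was 0 to 1 (limma, 2 to 5 unadjusted). With the replicate number as a block, 311 genes and 0 members were called (3 members unadjusted), with an adjusted p of 0.0649 for Fosb. The share of all genes at an unadjusted p under 0.05 was taken for the main fit only. The unadjusted counts of the other settings therefore have no background and are not read as a result. Deviations from the group means of arrays with the same number had correlations of -0.0719, -0.00784 and -0.0478, and 0 of the 6 arrays correlated best with its own number. These correlations are taken over all genes, so they cannot decide whether a shared number matters for a few genes. The fit without the block was kept as the main one by design. Fosl2 had -0.01 and changed sign to 0.15 with quantile normalization, 0.20 with median centring, 0.23 with cyclic loess, 0.0085 with the pseudocount and 0.10 with both quantile normalization and the pseudocount, and it ran from -0.32 to 0.16 with an array left out. Ier2 ran from -0.0025 to 0.63 with an array left out. The other 8 members kept their direction under every alternative that tested them. The same 3 members lay under the median signal, where the low end of the scale sets the size of a difference.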

Other observations

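Cytokine and ligand genes listed as targets of NFAT and AP-1 were mostly dim and mostly overlapped between the groups. Of 9 measured (Il2, Il3, Il4, Il5, Il13, Ifng, Tnf, Csf2 and Fasl), 0 passed the limma test (1 higher and 1 lower at an unadjusted p under 0.05), with a median log2 fold change of -0.29 against -0.22 over all genes. Il13, a type 2 cytokine gene, had 4.26, 4.23 and 4.74 in wild type and 5.11, 5.96 and 7.24 in Ets1-/-. All its Ets1-/- values lay above the wild-type ones, and the log2 fold change was 1.70 ± 0.50 (SE; limma adjusted p = 0.186). Il4, its neighbour in function, had 4.32, 4.52 and 4.31 in wild type and 4.26, 4.77 and 6.12 in Ets1-/-, with the high value on Ets1-/- replicate 3 only (0.66 ± 0.45, SE; adjusted p = 0.575). Il2, the growth factor gene of activated T cells, had 2.78, 3.29 and 3.34 in wild type and 2.33, 2.47 and 3.08 in Ets1-/- (-0.51 ± 0.29, SE; adjusted p = 0.515), and Il3 had a log2 fold change of -0.70 (adjusted p = 0.369).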
